A study of Mus musculus with 8 samples.

Results

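Chemokines and interleukins are the secreted signals described here, as they were measured in a mouse β-cell line with and without a plasmid for the transcription factor Klf4. The members were chosen by gene symbol alone: Ccl, Cxcl, Cx3cl or Xcl followed by a number, or Il followed by a number with at most a closing letter from a to f. This rule took 78 of the 55536 genes in the count table, 45 chemokine entries and 33 interleukin entries, with 73 distinct symbols. Of the 78, 26 had no count in any library, 34 had some counts but did not pass the filter on low counts, and 18 were tested (7 chemokines and 11 interleukins).

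The cells were MIN6, a line of insulin-producing cells from a mouse insulinoma, all labelled wild type (WT) in genotype. In 4 control libraries the cells had received the empty vector pcDNA 3, and in 4 Klf4 libraries they had received pGloMyc-Klf4, in both cases for 48 h with the transfection reagent Lipofectamine 3000. The plasmid names differ in more than the insert, so the vector backbone and Klf4 changed together and cannot be told apart. Replicates 1 and 2 of each group formed batch 1, and replicates 3 and 4 formed batch 2.

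Total counts lay between 45417853 and 52731176 per library. Klf4 itself ranged from 1743 to 2060 counts in control libraries and from 205171 to 308667 in Klf4 libraries, and its reads from the plasmid and from the cell's own gene are counted together. Summed markers of β cells made up 23352 to 30092 CPM (counts brought to equal library size by scaling) in the control libraries and 21978 to 30471 CPM in the Klf4 libraries. Libraries of 1 group differed more between batches (chi-square over its degrees of freedom 17.4 to 23.3) than within them (4.23 to 5.71), and all tests below carry a batch term unless stated.

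Chemokines are small secreted proteins that bind G protein-coupled receptors and direct the movement of leukocytes, and most lie in gene clusters of close relatives. Interleukins belong to several unrelated families: the IL-1 family acts through Toll-like receptor adaptors and NF-κB, the IL-6 family through a shared subunit called gp130 and STAT proteins, and the IL-17 family through its own receptor chains. In the islet, β cells are known as a target of IL-1β and as a source of chemokines under inflammatory stress. Klf4 is a zinc-finger factor that binds GC-rich CACCC-type sequence.

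The sequences just before the starts of 5 changed members are shown, since they carry the letters that a search for binding motifs can read. They are the 2 raised members with the largest change among those with an entry (Il17d and Il11), the 2 lowered members with the largest change (Cxcl10 and Il17f), and Il1b, the raised member with the highest control level. Each comes from the RefSeq start-site table on GRCm38.p6, reads 5′ to 3′ on the gene's strand and ends at or before the start site. Capitals mark matches to any of 4 motifs. They were GGGNGTGG (a GC box of the kind bound by Klf proteins, with any base at N) and GGG and TTTCC with any 2 bases between them (1 form of the kappa B site). The others were GAAA and GAAA with any 2 bases between them (the core of the interferon-stimulated response element) and TATAAA (the TATA box). Both strands were searched, and other forms of these sites were not. Bases inside a GENCODE exon were left out, which took 52 bases next to the start of Il17d and 26 bases at the far end of Il17f. The windows are chr14:57524579-57524776, plus strand, for Il17d, chr7:4778142-4778391, minus strand, for the second of 2 RefSeq starts of Il11, and chr2:129371140-129371389, minus strand, for Il1b. Those of Cxcl10 and Il17f are chr5:92348890-92349139 and chr1:20784271-20784494, both on the minus strand.
Il17d: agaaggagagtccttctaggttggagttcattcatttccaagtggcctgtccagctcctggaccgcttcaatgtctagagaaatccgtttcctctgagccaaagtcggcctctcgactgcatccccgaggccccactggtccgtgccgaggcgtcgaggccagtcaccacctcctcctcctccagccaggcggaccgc
Il11: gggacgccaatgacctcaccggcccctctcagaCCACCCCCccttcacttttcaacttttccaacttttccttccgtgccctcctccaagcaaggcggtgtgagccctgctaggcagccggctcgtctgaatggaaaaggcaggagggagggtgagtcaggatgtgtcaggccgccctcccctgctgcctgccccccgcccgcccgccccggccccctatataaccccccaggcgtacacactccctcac
Il1b: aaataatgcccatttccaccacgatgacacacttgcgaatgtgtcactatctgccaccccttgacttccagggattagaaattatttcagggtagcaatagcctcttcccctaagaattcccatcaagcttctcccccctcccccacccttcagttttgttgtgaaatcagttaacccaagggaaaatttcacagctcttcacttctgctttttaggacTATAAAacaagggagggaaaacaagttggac
Cxcl10: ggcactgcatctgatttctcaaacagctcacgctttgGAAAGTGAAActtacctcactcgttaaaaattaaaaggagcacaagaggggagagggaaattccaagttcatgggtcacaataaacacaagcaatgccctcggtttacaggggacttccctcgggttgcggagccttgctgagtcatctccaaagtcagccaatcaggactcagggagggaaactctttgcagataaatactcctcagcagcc
Il17f: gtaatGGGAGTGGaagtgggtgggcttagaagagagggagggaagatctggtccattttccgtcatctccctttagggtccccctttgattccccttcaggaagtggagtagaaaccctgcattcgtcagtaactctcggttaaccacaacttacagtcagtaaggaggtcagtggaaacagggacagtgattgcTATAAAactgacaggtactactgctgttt

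The Il17d stretch, before the member with the largest rise, held none of the 4 motifs. The Il11 window held a GC box in the reverse orientation, CCACCCCC, which ended 209 bases before the start. The window of 250 bases before the other RefSeq start of Il11 (chr7:4782858-4783107) held none of the 4 motifs. Il17f held GGGAGTGG, ending 211 bases before its start, a match that does not contain CACCC on either strand. Cxcl10, a classical interferon target, held GAAAGTGAAA at 203 bases. TATAAA ended 25 bases before the start of Il1b and 23 bases before that of Il17f. Of the 18 tested members, 13 had an entry, with 18 windows of 250 bases between them. A GC box was found in 3 of these 18 windows (Cxcl12, Il11 and Il17f), against 15.9% of all 32851 RefSeq windows of that length. The interferon motif was found in 1 of 18, against 2.98% of all, and TATAAA in 8 of 18, against 12.4% of all. The 1 form of the kappa B site that was searched was found in 0 of 18, against 1.41% of all. TATAAA was counted anywhere in a window. Besides those of Il1b and Il17f, it ended 23 bases before 1 start of Il33. The others ended 0 (Cx3cl1), 10 (Ccl25), 169 (Il18, reverse strand), 197 (another start of Il33) and 242 bases (Il17c) before the start. A match describes letters in a window and is no evidence of a bound site. A window without a match may hold another form of the site.

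Transfection with the Klf4 plasmid changed 8 of the 18 tested members (edgeR's quasi-likelihood test, Benjamini-Hochberg adjusted p under 0.05). Il17d, Il34 and Il11 rose by 5.39-fold, 5.03-fold and 2.29-fold, Ccl28 and Il1b rose by less than 1.5-fold, and Cxcl10, Il17f and Ccl25 fell. The share changed, 44.4%, stood beside 36.6% of all 18266 genes tested. By direction, 5 members (27.8%) were higher, beside 21.1% of all genes, and 3 (16.7%) were lower, beside 15.5%. These shares are near those of all genes, so the number of changed members is no result about chemokines and interleukins as a class. Log2 ratios are log2 fold changes of Klf4 over control libraries, and SE is their standard error. The median log2 ratio of the 18 members was 0.07, beside -0.01 for all genes tested. In 4 members the CPM ranges of the groups did not overlap (Il17d, Il34, Il11 and Il1b), a share of 22.2% beside 26.1% of all genes.

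**Figure D1:**
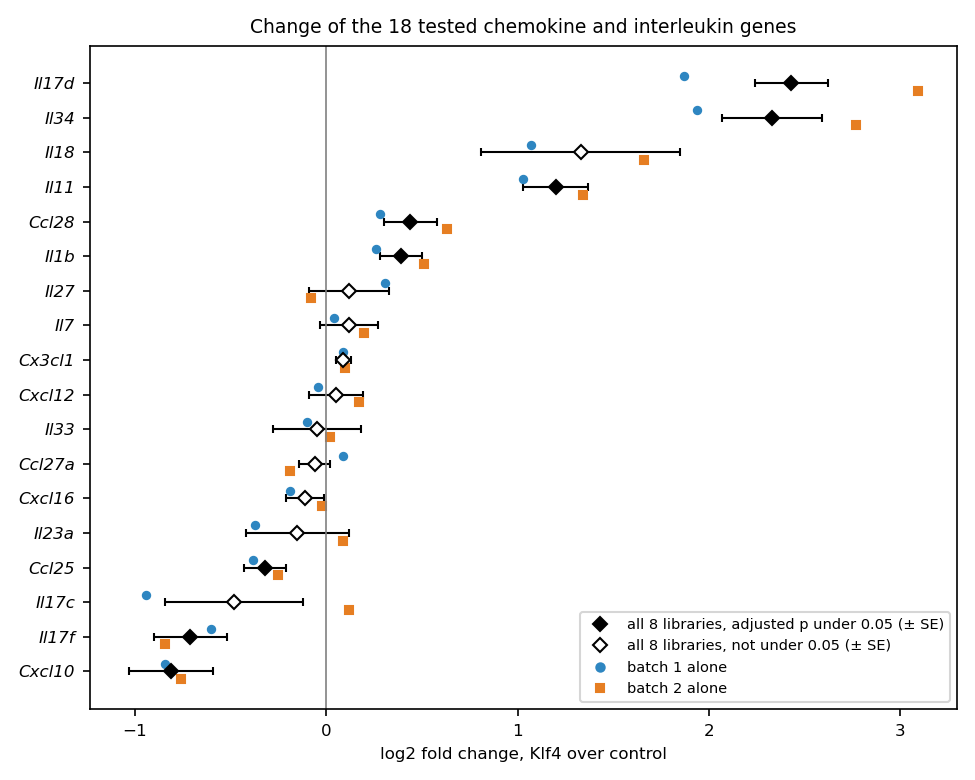
Log2 fold change (Klf4 over control, x axis) of the 18 tested chemokine and interleukin genes, as diamonds with bars of 1 standard error (SE), filled where the adjusted p was under 0.05, with the estimates within batch 1 (circles) and batch 2 (squares). Il17d (2.43) and Il34 (2.33) lie farthest to the right and Cxcl10 (-0.81) farthest to the left, and the 8 filled diamonds have the same sign in both batches.

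Among the interleukins, 4 rose and 1 fell of 11 tested. Il17d (ENSMUSG00000050222, chromosome 14, 57524777 to 57543166, plus strand on GRCm38) encodes a member of the IL-17 family that is made by many tissues outside the immune system. Its counts were 49, 43, 25 and 28 in control replicates 1 to 4 and 184, 158, 230 and 254 in Klf4 replicates 1 to 4. Every Klf4 library lay far above every control library, with no overlap. Expression went from 0.753 ± 0.252 to 4.06 ± 0.644 CPM (SD, n = 4), a log2 ratio of 2.43 (SE 0.19, adjusted p = 4.41e-10 in edgeR). The estimate was 1.87 in batch 1 and 3.09 in batch 2. The batch-by-plasmid interaction had an unadjusted p of 0.000686 in edgeR, and its adjusted p, the lowest of any tested member, was 0.0706 (0.766% of all genes passed this interaction test at 0.05, and 0 members did by edgeR or by DESeq2, with 2 and 1 members under an unadjusted p of 0.05).

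Il34 (ENSMUSG00000031750, chromosome 8, 110741829 to 110805924, minus strand) encodes a ligand of the macrophage growth factor receptor Csf1r. Control libraries held 22, 14, 8 and 16 of its counts and Klf4 libraries 70, 71, 81 and 96, again without overlap. Expression went from 0.312 ± 0.126 to 1.57 ± 0.191 CPM (SD, n = 4), a log2 ratio of 2.33 (SE 0.26, adjusted p = 1.78e-07 in edgeR), with 1.94 in batch 1 and 2.77 in batch 2. Only 3 of 4 control libraries reached the filter's cutoff of 0.204 CPM. Il34 overlaps the antisense gene Gm15894, which had 3 to 14 counts in control and 30 to 60 in Klf4 libraries (log2 ratio 2.25, SE 0.35, adjusted p = 2.13e-05 in edgeR). The strand setting of the counting is not given in the sources used here, so reads in the exonic sequence that Il34 and Gm15894 share cannot be told apart. How many reads of either gene fall there is not known.

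Il11 (ENSMUSG00000004371, chromosome 7, 4772373 to 4782859, minus strand) encodes a cytokine of the IL-6 family that signals through Il11ra1 and gp130. The control libraries had 40, 48, 52 and 56 counts and the Klf4 libraries 81, 101, 151 and 143. The lowest Klf4 library, replicate 1, stood above the highest control library. Expression went from 1.01 ± 0.13 to 2.35 ± 0.586 CPM (SD, n = 4), a log2 ratio of 1.20 (SE 0.17, adjusted p = 5.95e-06 in edgeR), with 1.03 in batch 1 and 1.34 in batch 2. The stretch printed above for Il11 precedes the second of its starts, and the counts do not tell the starts apart.

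Il1b (ENSMUSG00000027398, chromosome 2, 129364570 to 129371139, minus strand) encodes the precursor of IL-1β, the inflammatory cytokine best known for impairing β cells. Its counts were 195, 171, 220 and 175 in control and 239, 208, 273 and 331 in Klf4 libraries. The ranges of CPM did not overlap, although the nearest libraries were close (4.46 CPM in control replicate 3 and 4.59 CPM in Klf4 replicate 2). Expression went from 3.94 ± 0.446 to 5.17 ± 0.786 CPM (SD, n = 4), a log2 ratio of 0.39 (SE 0.11, adjusted p = 0.00637 in edgeR). Within batch 1 alone, 0.26, it did not pass the test (adjusted p = 0.202 in edgeR), and within batch 2 it was 0.51. The antisense gene Il1bos, which overlaps it, had 0 to 8 counts in any library.

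Il17f (ENSMUSG00000041872, chromosome 1, 20777146 to 20790617, minus strand), a cytokine best known from T helper 17 cells, fell. Control libraries held 83, 84, 49 and 60 of its counts and Klf4 libraries 65, 47, 28 and 37. The groups overlapped, since batch 2 was lower than batch 1 in both, and within each batch both Klf4 libraries lay below both control libraries. The mean, 1.43 ± 0.376 CPM in control, stood beside 0.883 ± 0.327 CPM in Klf4 libraries (SD, n = 4), and the log2 fold change was -0.71 (SE 0.19, adjusted p = 0.00596 in edgeR), with -0.60 in batch 1 and -0.84 in batch 2. Without the batch term the adjusted p was 0.105, and within the batches alone it was 0.0791 and 0.0521. The IL-17 family thus had members that rose (Il17d) and fell (Il17f). Il17c, an epithelial cytokine that was also tested, had 8 to 37 counts in control and 11 to 24 in Klf4 libraries and did not pass the test (log2 ratio -0.48, SE 0.36, adjusted p = 0.33 in edgeR).

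**Figure D2:**
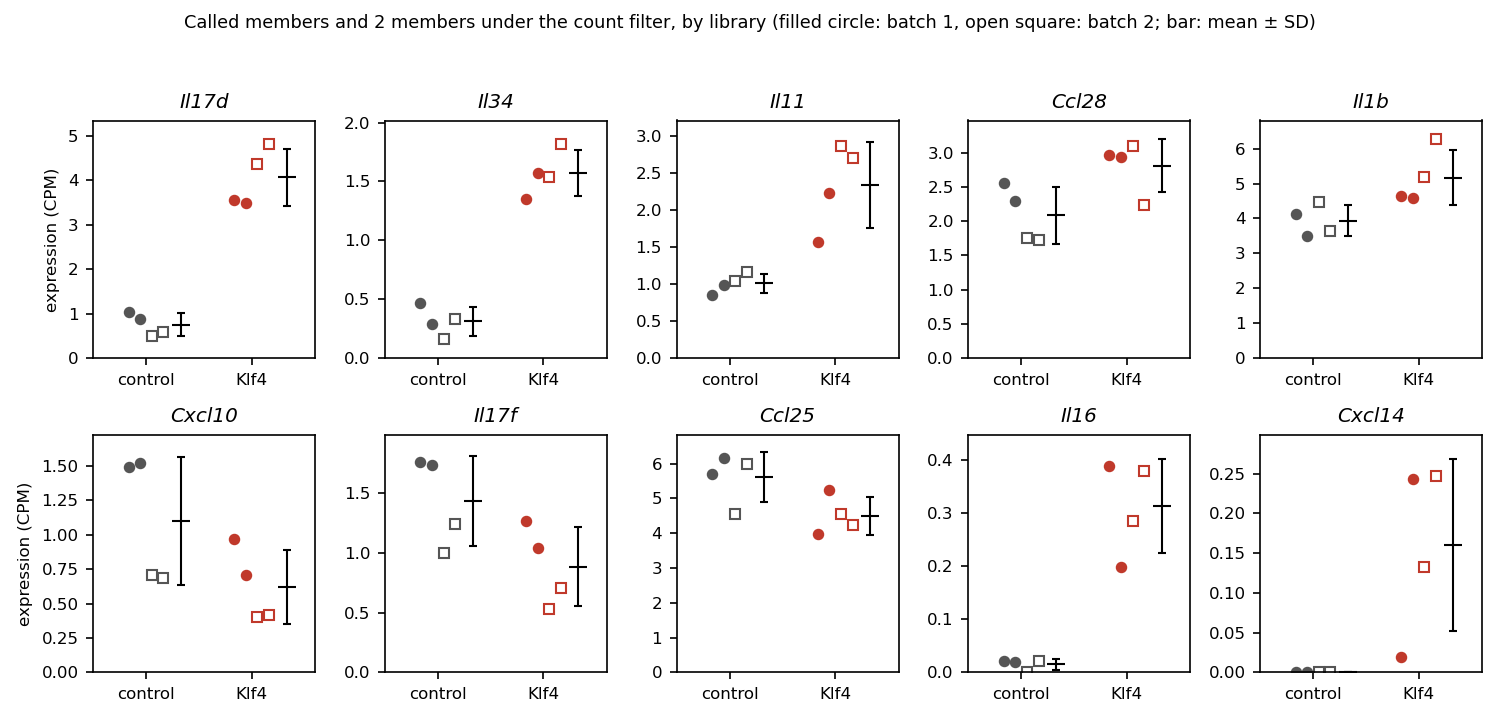
Expression in CPM (y axis of each panel, from 0) by group for the 8 changed members and for Il16 and Cxcl14, which did not pass the filter on low counts; each point is a library (filled circle, batch 1; open square, batch 2) and the bar gives the mean ± SD of 4. Il17d, Il34, Il11 and Il1b show groups that do not overlap, and in Cxcl10 and Il17f batch 2 lies below batch 1 in both groups.

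Of the 7 chemokines tested, 1 rose, 2 fell and 4 did not pass the test. Ccl28 (ENSMUSG00000074715, chromosome 13, 119623819 to 119654359, plus strand), a chemokine of mucosal epithelia that binds Ccr10 and Ccr3, had 120, 112, 87 and 83 counts in control and 153, 133, 163 and 118 in Klf4 libraries. The ranges overlapped between control replicate 1 (2.55 CPM) and Klf4 replicate 4 (2.24 CPM), libraries of different batches. Expression went from 2.08 ± 0.407 to 2.81 ± 0.388 CPM (SD, n = 4), a log2 ratio of 0.44 (SE 0.14, adjusted p = 0.0167 in edgeR), with 0.28 in batch 1 and 0.63 in batch 2. The call was lost without control replicate 3 (adjusted p = 0.0545), control replicate 4 (0.0534) or Klf4 replicate 3 (0.119). It was also lost without the batch term (0.0914) and within batch 1 alone (0.301).

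Cxcl10 (ENSMUSG00000034855, chromosome 5, 92346638 to 92348889, minus strand), an interferon-induced chemokine that draws T cells through Cxcr3, had 70, 74, 35 and 33 counts in control and 50, 32, 21 and 22 in Klf4 libraries. Batch 1 was higher than batch 2 in both groups, the groups overlapped as wholes, and within each batch both Klf4 libraries lay below both control libraries. Control libraries averaged 1.1 ± 0.466 CPM and Klf4 libraries 0.623 ± 0.27 CPM (SD, n = 4). The log2 fold change was -0.81 (SE 0.22, adjusted p = 0.00599 in edgeR), with -0.84 in batch 1 and -0.76 in batch 2. Without the batch term the adjusted p was 0.137, and within batch 2 alone it was 0.175. Art3 on the opposite strand overlaps Cxcl10 and had 4 to 17 counts in any library.

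Ccl25 (ENSMUSG00000023235, chromosome 8, 4325210 to 4360020, plus strand), a chemokine of thymus and gut that binds Ccr9, had 269, 300, 225 and 289 counts in control and 206, 237, 240 and 223 in Klf4 libraries. The groups overlapped: control replicate 3, at 4.56 CPM, lay among the Klf4 libraries, which reached 5.24 CPM. Control libraries averaged 5.61 ± 0.719 CPM and Klf4 libraries 4.5 ± 0.542 CPM (SD, n = 4), and the log2 fold change was -0.32 (SE 0.11, adjusted p = 0.0244 in edgeR). This call was lost without control replicate 4 (adjusted p = 0.0915), Klf4 replicate 1 (0.12) or Klf4 replicate 4 (0.0568), without the batch term (0.0935), within batch 2 alone (0.227) and with scaling factors taken from abundant genes (0.0529). Elavl1, an abundant gene on the opposite strand that shares exonic sequence with Ccl25, had 4903 to 5697 counts in any library and a log2 fold change of -0.11 (adjusted p = 0.00325 in edgeR). Since the strand setting is not given, reads in the sequence that Ccl25 and Elavl1 share cannot be told apart.

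The 4 chemokines that did not pass the test included those with the highest levels. Cx3cl1 (ENSMUSG00000031778, chromosome 8, 94772009 to 94782427, plus strand) encodes fractalkine, a membrane-bound chemokine. It had 1385, 1443, 1655 and 1539 counts in control and 1613, 1445, 1814 and 1859 in Klf4 libraries. Its mean level, 31.1 ± 1.97 CPM in control, stood beside 33.2 ± 1.95 CPM in Klf4 libraries (SD, n = 4), with overlapping groups and a log2 ratio of 0.09 (SE 0.04, adjusted p = 0.0793 in edgeR). It passed the test with factors from abundant genes (0.0179) and when genes were filtered at 1 CPM (0.0437). Ccl27a (chromosome 4, 41769467 to 41774247, minus strand), a skin chemokine that binds Ccr10, had 558, 577, 617 and 638 counts in control and 601, 621, 524 and 652 in Klf4 libraries, with overlapping groups. Its log2 fold change was -0.06 (SE 0.08, adjusted p = 0.637 in edgeR), with 0.09 in batch 1 and -0.19 in batch 2. Cxcl16 (chromosome 11, 70453983 to 70459984, minus strand), a transmembrane chemokine that binds Cxcr6, had 368, 373, 259 and 205 counts in control and 315, 342, 234 and 257 in Klf4 libraries, again overlapping. Its log2 fold change was -0.11 (SE 0.10, adjusted p = 0.403 in edgeR). Cxcl12, the ligand of Cxcr4, had a log2 fold change of 0.05 (SE 0.14).

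The interleukins that did not pass the test, other than Il18, had log2 fold changes from -0.48 to 0.12, among them Il7 (0.12), Il27 (0.12), Il33 (-0.05) and Il23a (-0.15). Il18, an IL-1 family cytokine that caspase-1 matures, had a larger estimate. Its counts were 12, 3, 2 and 7 in control and 28, 5, 16 and 15 in Klf4 libraries, and the groups overlapped. Its log2 ratio was 1.33 (SE 0.52), and the adjusted p in edgeR was 0.0502. With the replicate number as a block it was 0.0325, without control replicate 1 it was 0.0173, and without Klf4 replicate 2 it was 0.00995. At these depths Il18 stood on either side of the threshold by the choice of fit. Il27 shares exonic sequence with Apobr on the opposite strand, which had 21 to 66 counts in control and 88 to 128 in Klf4 libraries. Apobr rose (log2 ratio 1.31, adjusted p = 9.44e-05 in edgeR), and reads in the shared sequence cannot be told apart.

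The order of the members in the control cells was set on a scale per length, in CPM per kilobase of exon. Cx3cl1 was highest at 7.92 ± 0.502, followed by Ccl27a at 5.2 ± 0.274, Cxcl16 at 2.07 ± 0.588 and Il1b at 2.06 ± 0.234 (SD, n = 4). The ranges of Cx3cl1 and Ccl27a overlapped neither each other nor those of the next member, while those of Cxcl16 and Il1b overlapped. Il27 followed at 0.959 ± 0.12, and from Ccl25 (0.753 ± 0.0966) down to Il18 (0.122 ± 0.0944) every member overlapped its neighbour in the order. In the Klf4 libraries Il17d reached 3.19 ± 0.506 CPM per kilobase, from 0.591 ± 0.198, and Il34 reached 0.802 ± 0.0977, from 0.159 ± 0.0642. Summed over all members, expression was 72.1 to 77.5 CPM in control libraries and 79.5 to 85.1 CPM in Klf4 libraries. Cx3cl1 and Ccl27a together made up 53.3% to 63.9% of this sum in control libraries and 53% to 56% in Klf4 libraries.

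**Figure D3:**
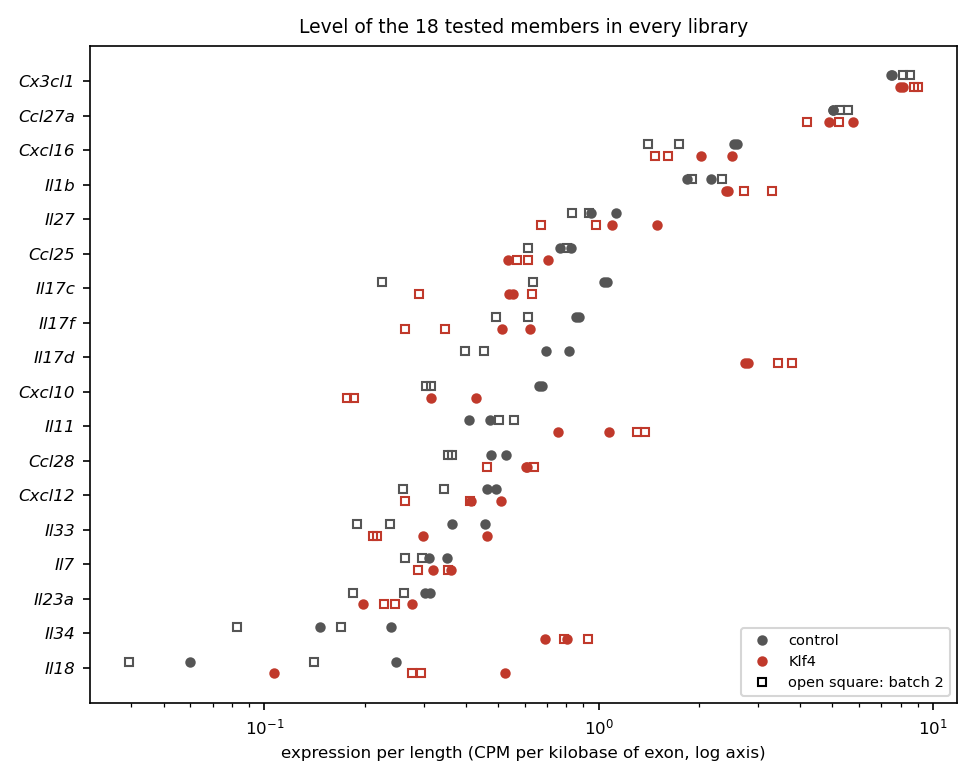
Level of the 18 tested members in every library, in CPM per kilobase of exon on a log axis, ordered by the control mean, with control libraries in grey and Klf4 libraries in red (open squares, batch 2). Cx3cl1 (7.92 in control) and Ccl27a (5.2) stand at the top in both groups, and Il17d moves from 0.591 to 3.19.

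Most members were not detectable or nearly so at this depth. Of the 26 with no count in any library, 22 were chemokine entries and 4 were interleukins, Il3, Il9, Il20 and Il24. Ccl19, Ccl21a, Ccl21b and Ccl27 had several entries each, near-identical copies in which reads may not be assigned to a copy, and all were at 0. Of the 34 with counts that did not pass the filter, 32 had at most 8 counts in a library. These included the classical inflammatory cytokine Il6 (1 count in all control libraries together and 7 in all Klf4 libraries), the monocyte chemokine Ccl2 (4 and 15) and the T-cell chemokine Ccl5 (19 and 26). In 12 of the 34 the control libraries were all at 0 and at least 1 Klf4 library was not, and in 1, Cxcl13, the reverse held. Several of the 12 rest on next to nothing: Ccl20, Il10, Cxcl9 and Ccl3 had 1 count in all Klf4 libraries together. The share of all genes with such a pattern was not computed, so no direction is read from these numbers.

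The other 2 untested members had at least 10 counts in a library. Il16 (chromosome 7), which encodes a precursor protein whose end part attracts CD4+ cells, had 1, 1, 0 and 1 counts in control and 20, 9, 15 and 20 in Klf4 libraries. The group sums of 3 and 64 counts gave a ratio of 20.4 in expression (95% exact interval 6.67 to 101, counting error only). Cxcl14 (chromosome 13), a chemokine of epithelia, had 0 counts in all control libraries and 1, 11, 7 and 13 in Klf4 libraries. Against a floor of 3 counts per control library (0.0621 CPM), its mean of 0.16 CPM was at least 2.59-fold higher. In a fit with no filter, 12 of 52 members were called, beside 21.9% of all genes in that fit. Those gained were Il16 (adjusted p = 9.66e-08 in edgeR), Cxcl14 (9.7e-05), Il18 (0.0252) and Il1a (0.0466), which had 0 counts in all control libraries and 2, 1, 6 and 6 in Klf4 libraries.

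Members that are neighbours in the genome stood at different levels. Cxcl10 lies with Cxcl9 and Cxcl11 in 44.1 kb of chromosome 5, and those had at most 3 counts in a library. Il17f lies with Il17a in 59.7 kb of chromosome 1, and Il17a had at most 4. Cx3cl1, with 1385 to 1859 counts, lies between Ccl17 and Ccl22 in 66.4 kb of chromosome 8, and those had at most 7. Il1b and Il1a lie in 71.5 kb of chromosome 2, and Il1a had at most 6. No member of the Ccl2 cluster (270 kb, at most 7 counts) or the Ccl3 cluster (139 kb, at most 8 counts) on chromosome 11, of the Cxcl1 cluster on chromosome 5 (147 kb, at most 3) or of the Il4 cluster on chromosome 11 (664 kb, at most 4) was tested.

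The receptors were read from lists of their own. Of 47 interleukin receptor and signalling genes listed, 29 were tested, 12 rose and 3 fell (51.7%, beside 36.6% of all genes), with a median log2 fold change of 0.19 beside -0.01. Il12rb1 and Il9r were under the filter's cutoff in every control library, so they were tested only through the Klf4 libraries and had to be higher there if they differed. Il12rb1, the chain shared by the IL-12 and IL-23 receptors, had 9, 4, 3 and 4 counts in control and 161, 126, 277 and 234 in Klf4 libraries, with no overlap (log2 ratio 5.19, SE 0.26). Of the genes for its ligands, Il23a did not pass the test, and Il12a and Il12b had at most 2 counts in a library. Il2rb, a chain of the IL-2 and IL-15 receptors, had 4 to 18 counts in control and 59 to 110 in Klf4 libraries (log2 fold change 2.80, SE 0.30).

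Il6ra, the ligand-binding chain for IL-6, had 345, 345, 258 and 270 counts in control and 983, 864, 1130 and 1136 in Klf4 libraries, with no overlap (log2 ratio 1.69, SE 0.09, adjusted p = 3.01e-13 in edgeR). The estimate was 1.40 in batch 1 and 2.00 in batch 2, and the difference of 0.59 passed the interaction test (adjusted p = 0.0149 in edgeR). Il6st, which encodes the gp130 subunit that IL-6 and IL-11 share, fell by 0.14 on the log2 scale (adjusted p = 0.00266 in edgeR). For Il11, the ligand that rose, the receptor Il11ra1 did not pass the test (log2 fold change -0.05, SE 0.09). It overlaps Ccl27a on the opposite strand.

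For IL-1β the signalling receptor Il1r1 was among the more abundant receptor genes, at 451 ± 23.4 CPM in control and 399 ± 36.7 CPM in Klf4 libraries (SD, n = 4), and it fell by 0.18 on the log2 scale (SE 0.03, adjusted p = 1.47e-05 in edgeR). The accessory chain Il1rap had 294 to 346 counts in control and 630 to 952 in Klf4 libraries and rose (log2 ratio 1.22, SE 0.08, adjusted p = 3.3e-11 in edgeR). The decoy receptor Il1r2 did not pass the test (0.62, adjusted p = 0.0724 in edgeR), and it did without Klf4 replicate 1 (0.0327). Il17ra, the chain through which IL-17F signals, rose (0.33, SE 0.04, adjusted p = 1.89e-06 in edgeR), and its partner Il17rc did not pass the test (0.04, SE 0.06). Lifr, which pairs with gp130, fell by 0.21 on the log2 scale (adjusted p = 0.00151 in edgeR). The calls of Il1r1, Il6st and Lifr were lost without the batch term, and that of Lifr also within batch 2 alone (adjusted p = 0.152 in edgeR).

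Several receptors of the other changed ligands were not tested because their counts were low. Csf1r, the receptor of IL-34, had 2 to 22 counts, Cxcr3, the receptor of Cxcl10, had 0 to 2, Ccr9, the receptor of Ccl25, had 0 to 4, and Ccr3 had 0 in every library. Ccr10, which binds Ccl28 and Ccl27a, had 402 to 617 counts and a log2 ratio of -0.07 (SE 0.09, adjusted p = 0.587 in edgeR). Of 23 chemokine receptor genes listed, 4 were tested and 1 rose (25%, beside 36.6% of all genes): Cxcr4, the receptor of Cxcl12. It had 46, 45, 87 and 86 counts in control and 148, 112, 193 and 211 in Klf4 libraries, with no overlap (log2 ratio 1.28, SE 0.14, adjusted p = 1.47e-07 in edgeR).

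**Figure D4:**
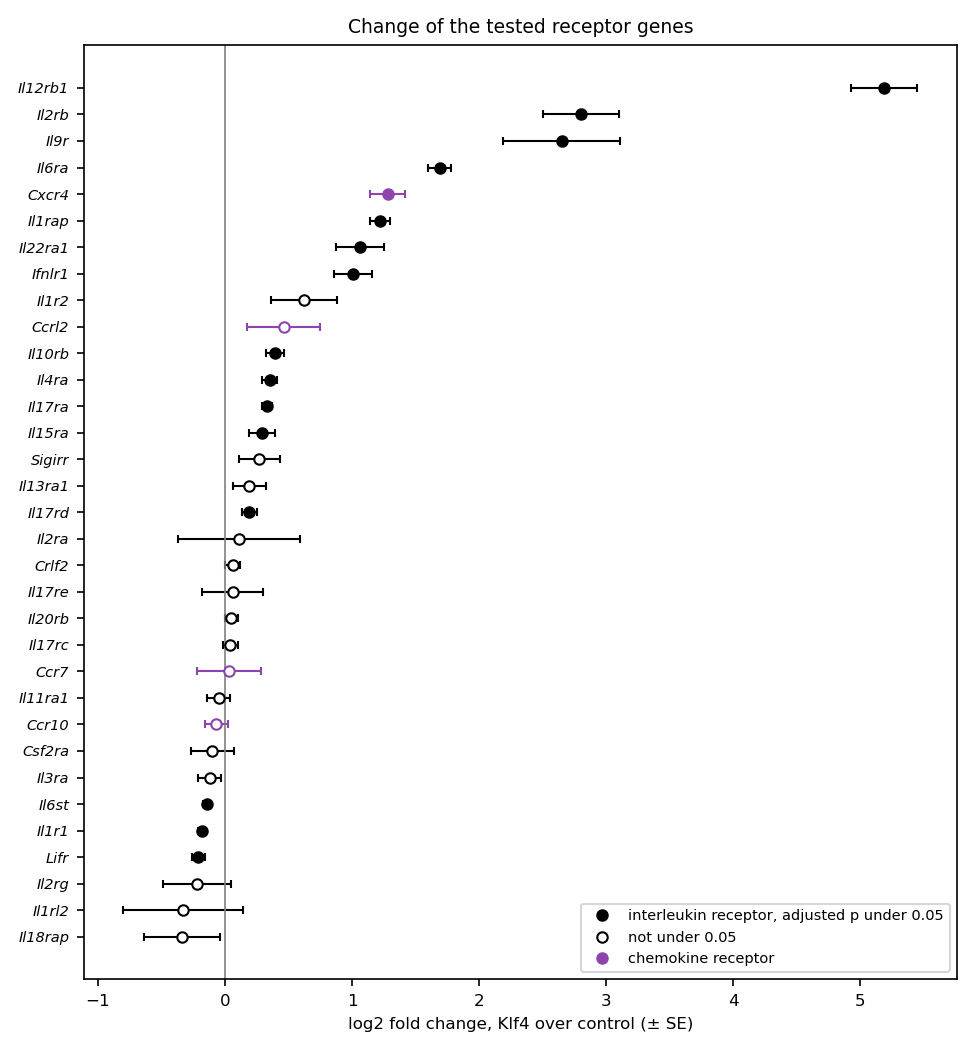
Log2 fold change (Klf4 over control, x axis) with bars of 1 SE for the 33 tested receptor genes, interleukin receptors in black and chemokine receptors in purple, filled where the adjusted p was under 0.05. Il12rb1 (5.19), Il2rb (2.80) and Il6ra (1.69) are among those farthest to the right, and no filled point lies below -0.21.

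Soluble relatives of the members that carry other symbols were counted from a separate list, in which 8 of 20 matched genes were tested, 3 rose and 2 fell (62.5%, beside 36.6% of all genes), with a median log2 fold change of 0.17. Clcf1, a gp130 cytokine, had 14 to 27 counts in control and 81 to 115 in Klf4 libraries and rose by 2.14 (SE 0.22) on the log2 scale. Lif, another gp130 cytokine, rose by 0.54 (SE 0.16). The call of Lif was lost without the batch term, within batch 1 alone (adjusted p = 0.126 in edgeR) and within batch 2 alone (0.0579). Il1rn, the IL-1 receptor antagonist, had 5 to 10 counts in control and 10 to 24 in Klf4 libraries (log2 ratio 1.09, SE 0.39, adjusted p = 0.0336 in edgeR). Its adjusted p was 0.0514 with the replicate number as a block, and it was between 0.0543 and 0.157 when any of 6 libraries, all but control replicate 4 and Klf4 replicate 2, was left out. Csf1, which shares its receptor with IL-34, fell by 0.17 on the log2 scale, and Mif fell by 0.11; the call of Mif was lost without control replicate 1 (0.0522), control replicate 3 (0.0694) or Klf4 replicate 3 (0.0595). With factors from abundant genes neither passed (0.0539 for Csf1 and 0.132 for Mif).

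Genes that process interleukins or carry their signals were counted in 3 lists, whose shares stand beside the 36.6% of all genes that changed (21.1% higher and 15.5% lower). Of 17 inflammasome genes, 6 were tested, 4 rose and 0 fell (66.7% changed), with a median log2 fold change of 0.57: the sensor Nlrp10 (3.70), Naip2 (0.66), Nlrp6 (0.48) and the pore protein gene Gsdmd (0.22). The call of Nlrp6 was lost without the batch term, within batch 1 alone (adjusted p = 0.0617 in edgeR) and within batch 2 alone (0.0511). That of Gsdmd was lost without the batch term. Of 19 JAK, STAT and SOCS genes, 18 were tested, 11 rose and 2 fell (72.2% changed), with a median of 0.19. Socs3, a feedback inhibitor of gp130 signalling, rose by 0.71 (SE 0.06, adjusted p = 2.58e-09 in edgeR), Stat6 by 0.62, Socs2 by 0.51 and Stat5a by 0.49, and Stat5b fell by 0.14 and Socs4 by 0.18 on the log2 scale. Of 24 genes of IL-1 and Toll receptor signalling, all were tested, 8 rose and 2 fell (41.7%, near the share of all genes), and the median was 0.02. Irak3, an inhibitor of this pathway, had 2, 2, 2 and 0 counts in control and 194, 153, 342 and 314 in Klf4 libraries. Its control libraries were all under the filter's cutoff, so it was tested only through the Klf4 libraries, and its log2 ratio of 7.19 rests on 0 to 2 control counts per library. Nfkbie (0.31), Nfkbiz (0.28) and Ikbkb (0.17) rose, and Tab2 and the NF-κB inhibitor Tnfaip3 fell by 0.15 and 0.46 on the log2 scale. The calls of Stat5b, Socs4, Nfkbie and Tnfaip3 were lost within batch 2 alone.

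Of 21 interferon response genes, the class to which Cxcl10 belongs by its known induction, 18 were tested, 6 rose and 1 fell, with a median log2 fold change of 0.22. The share changed, 38.9%, is near the 36.6% of all genes. Ddx58, a sensor of viral RNA, rose by 0.89, Irf7 by 0.51, Irf9 by 0.30 and Irf1 by 0.27, and Rsad2 fell by 0.22 on the log2 scale, a call that was lost without Klf4 replicate 1 (adjusted p = 0.0591 in edgeR) and with factors from abundant genes (0.0503). Ifnb1 had no count in any library.

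Markers of other cell types and of β cells were read beside these values. Among all genes tested, 36.6% changed (21.1% higher and 15.5% lower). Of the tested markers, 20% (leukocyte), 80% (fibroblast), 66.7% (keratinocyte), 33.3% (endothelial) and 28.6% (β cell) changed. Each share rests on only 3 to 7 genes. Of 10 leukocyte markers 5 were tested and 1, Cd79a, rose (0.35), and their summed level was 10.1 to 11.1 CPM in control and 10.6 to 13.3 CPM in Klf4 libraries. Cd68, which macrophages express, was the highest of them at 263 to 357 counts per library. The lowest 3 of the 10 were Ptprc (0 to 7), Adgre1 (0 to 3) and Tyrobp (0 to 4). Every other leukocyte marker reached at least 10 counts in some library, among them Csf1r (2 to 22). Of 8 fibroblast markers 5 were tested and 4 rose, Dcn, Pdgfra, Col1a1 and Thy1 (Dcn and Pdgfra with every control library under the filter's cutoff), and their sum went from between 4.41 and 5.65 CPM to between 24.1 and 30.8 CPM, while Lum was at 0 and Col3a1 had at most 3 counts in a library. Of 6 keratinocyte markers 3 were tested and 2 rose, Krt14 and Dsg3, both under the cutoff in every control library, with sums of 3.82 to 4.26 CPM in control and 23.7 to 36.3 CPM in Klf4 libraries, while Trp63 was at 0. Of 6 endothelial markers 3 were tested and 1, Cdh5, rose, with 0 counts in every control library and with sums of 4.14 to 4.48 CPM and 5.04 to 5.32 CPM. Of 7 β-cell markers 0 rose and 2 fell, Slc30a8 by 0.22 and Iapp by 0.07 on the log2 scale. In these bulk libraries a change in the number of cells of a kind and a change in RNA per cell cannot be told apart, and the part of other cell types in the members' changes was not tested.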

How the data were processed

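The values are whole-number read counts per gene, 1 column per library, as deposited by the authors, not normalised. Per the submitters' processing notes, FastQC, STAR, featureCounts and edgeR were used with the mm10 build; versions and the strand setting are not given in the sources used here. All 55536 identifier and symbol pairs were found in GENCODE M21 (GRCm38), which gave coordinates and exon lengths. The labels' extraction text speaks of islets, but every sample is labelled MIN6 and was treated so. The series text calls the replicates biological without naming separate cultures, so p-values measure the spread between these samples.

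Genes were kept by filterByExpr (minimum count 10), which left 18266, and scaled by TMM (factors 0.996 to 1.01). A model with batch and plasmid terms was tested with edgeR 4.0.16 (quasi-likelihood) under R 4.3.3, adjusted by Benjamini-Hochberg over all 18266 genes, with a threshold of 0.05 and no fold minimum. SE is the log2 ratio over the root of F. The design follows the series text. CPM were computed here from the counts and scaled by TMM. The floor for a gene at 0 is 3 counts per library. The 95% interval of the Il16 ratio is exact (Clopper-Pearson on the 2 sums). Intervals and floors cover counting error only.

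Same-numbered control and Klf4 libraries deviated together from their group means (correlations 0.614, 0.459, 0.57 and 0.516 over 10485 genes). By the labels the same numbers share a batch, and these deviations hold the batch difference. The correlations therefore cannot show pairing within a batch. Whether same-numbered cultures were handled together is not stated. A fit with the number as a block was made only as an alternative. Alternatives were no batch term, that block, DESeq2 1.42.0 size factors and its Wald test, limma 3.58.1 (voom), TMM factors from abundant genes (average log2 CPM 6 or more), no filter, a filter at 1 CPM in 4 libraries, single batches, stricter thresholds and leaving out each library in turn.

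The members, the gene lists and the tests were chosen with earlier results of these data known. Members past the threshold are named, with all counts for the 10 of largest change, every lowered one and the 4 of highest control level per length; untested members are named where a library has at least 10 counts, and in each list up to 4 raised and 2 lowered genes of smallest adjusted p. Other members and receptors named with values, such as Il18, Il6, Ccl2, Ccl5 and the receptors of named ligands, were chosen for their role or after their values were seen. Of the 22 soluble relatives counted, 2 symbols had no match; 1 further gene of that list is not reported here and is in no count. Promoter sequence is from RefSeq (GRCm38.p6), with entries for 51 of 73 member symbols and no entry for Il34, Cxcl16, Il7, Il27 and Il23a among those tested. The procedure was tested on simulated counts.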

Additional observations from a re-analysis of the deposited data

Results flagged for a closer look

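In 108 groups of 4 libraries, the gap of the highest or lowest library to its nearest neighbour was compared with the group's range, and 3 groups were singled out, beside 5.4 that chance alone gives at 1 in 20. Il12rb1 stood at 0.191 CPM in control replicate 1 and at 0.0609 to 0.0829 CPM in the other control libraries. Irak3 was at 0 CPM in control replicate 4 and at 0.0406 to 0.0425 CPM in the other control libraries, and Il16 was at 0 CPM in control replicate 3 and at 0.0205 to 0.0212 CPM in the others. The last 2 rest on differences of 1 or 2 counts.

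The rise of Il6ra differed between the batches: the log2 ratio was larger by 0.59 in batch 2 than in batch 1 (interaction term, adjusted p = 0.0149 in edgeR). Il6ra was higher in the Klf4 libraries of both batches. Klf4 itself also passed this interaction test (0.37, adjusted p = 0.0057 in edgeR), with log2 ratios of 6.78 in batch 1 and 7.17 in batch 2. All 5 raised members had larger estimates in batch 2. Whether these differences are related was not tested.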

How the results depend on the processing

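Of the 8 changed members, all were called with DESeq2 size factors, the DESeq2 Wald test, limma-voom and the replicate block, which also called Il18 (9 members) and changed no other named call but that of Il1rn. Of all genes, those fits called 34.4% to 37.2%. Without the batch term 4 members were called, 0 of them lower and 0 of them chemokines, beside 22.5% of all genes (6.35% lower). Batch 1 alone called 5 (3 higher, 3 interleukins), beside 24.4% of all genes (15.9% higher). Batch 2 alone called 0 lower and 1 chemokine, beside 29.8% of all genes (9.73% lower). With a fold of at least 2 as well, 3 remained, for which no share of all genes was computed. Without a filter, 9 of 52 members were higher, beside 12.7% of all genes. In that fit 8 interleukins and 4 chemokine receptors were called, beside 21.9% of all genes. Of these receptors, Ackr1 and Ackr2 had 0 counts in every control library and Cxcr2 had 1 in all of them together, so they could only be called higher. Leaving out each library gave 7 to 10 changed members and 1 to 3 chemokines (1 without control replicate 4), and 5 to 7 interleukins, partly because Il16 then passes the filter, which needs fewer libraries. In these fits 31.8% to 38% of all genes were called.

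For 12 named members, 189 of 214 alternative values kept direction and side of the threshold, 17 lost and 6 gained the call, and 2 reversed. For 40 list genes these were 672 of 717, 38, 1 and 6. The reversals were uncalled values near 0: Ccl27a (0.09 in batch 1 alone, and -0.14 to 0.02 without each library), Il17rc (-0.01 to 0.09 without each library), Il11ra1 (0.05 in batch 2 alone, and -0.10 to 0.01), Il18rap (0.11 in batch 1 alone, and -0.50 to 0.02) and Ccr10 (0.02 in batch 2 alone). Why calls changed was not tested. The single batches and the omissions also hold fewer libraries. Il34, Il17c and Il18 were under the filter's cutoff in at least 1 control library, and the 60 members that did not pass the filter set no limit on change.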
